A study of Mus musculus with 22 samples.

Results

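The H3K4me2 regions described here carried a peak in BV2 cells with the empty vector and with a wild-type huntingtin fragment, and none with a mutant huntingtin fragment. BV2 is an immortalised mouse microglial line. Cells were transduced with lentivirus made from the vector pCDH, in which a CMV promoter drives the insert and another cassette gives puromycin resistance. The 3 constructs were Nmu, the N-terminal part of human huntingtin carrying 128 glutamines (the mutant fragment), Nwt, the same part of the protein with 15 glutamines (the wild-type fragment), and pCDH itself with no insert (the empty vector). All 3 lines also keep the huntingtin gene of the mouse cell, and each construct is represented by 1 transduced line. ChIP-seq libraries for H3K4me2, C/EBPα, C/EBPβ and PU.1, 1 per construct and labelled 24 h, and 2 poly(A) RNA libraries per construct were used. The titles of these BV2 libraries carry the tag notx, read here as no treatment. Of the RNA libraries of each construct, 1 is labelled 24 h. The other is 48 h by the labels but 6 h by the table's own column names, and is called the second time. Microglia and bone marrow derived macrophages of Q175/175 (mutant) and Q7/7 (wild-type) mice gave 1 RNA library each.

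The regions were chosen by the peak calls themselves: a peak of the empty-vector list that shares 1 bp or more with a peak of the wild-type-fragment list and none with a peak of the mutant-fragment list. They are called Nmu-absent regions below. They numbered 2589 of the 39503 empty-vector peaks (6.55%), and 7.56% of the 34246 peaks shared by both controls. Another 31657 regions were present with all 3 constructs (constant regions), and 2784 were in the empty-vector list alone. Exchanging the fragments in the same rule gave 2473 regions present with Nmu and pCDH and absent with Nwt (Nwt-absent regions), or 7.25% of 34130. The number of regions that one library lacks was therefore of similar size for either fragment. Anchored on the wild-type-fragment list instead, 2717 of 35190 peaks (7.72%) were absent with Nmu. Because the calls chose these regions, their number, width and place are descriptions and were not tested.

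H3K4me2 is dimethylation of lysine 4 on histone H3, placed by the KMT2 and SETD1 methyltransferases and removed by the demethylases KDM1A and KDM5. It marks active and poised promoters and enhancers. In macrophages and microglia, PU.1, the transcription factor that defines the myeloid lineage, binds with partners such as C/EBPα and C/EBPβ at sites that then gain this mark. A region of H3K4me2 is thus a usual sign that a regulatory element is accessible in a cell type, and distal elements vary more between cell states than promoters do.

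Promoters show where the mark and a transcript can be read together. Of 80 genes with a transcript start inside an Nmu-absent region, 58 had an entry in a RefSeq table of promoters (build GRCm38.p6; 250 bases before the start and 50 from it on). Printed here are those of the 4 genes with the largest falls in RNA value among genes with such a start, F13a1, Ace, Mmp14 and Cyp11a1. Starts were compared across builds by their distance from the gene's most upstream start, so the upstream starts were paired by rule. Only for F13a1 did the spacing of a further start also match. Mmp14 has a single start in each build. The inner Ace start, 7241 bp in on GRCm38.p6, had no mm9 start at that distance. Cyp11a1 has a further start 16928 bp in on GRCm38.p6 and a single start on mm9. For Ace, Mmp14 and Cyp11a1 the pairing was thus assumed. The peaks themselves are on mm9 and their own sequence was not read. F13a1 has starts 1031 bp apart in both builds, and each lay in a separate Nmu-absent region. Capitals mark matches, on either strand, to AGGAAGT (an ETS core of the kind PU.1 binds), TTGCNNAA (C/EBP), TGANTCA (AP-1) or ACGTG (the core of the hypoxia response element). No match in a window says only that these letters are not in it.
F13a1, upstream start, chr13:37050195-37050494, minus strand: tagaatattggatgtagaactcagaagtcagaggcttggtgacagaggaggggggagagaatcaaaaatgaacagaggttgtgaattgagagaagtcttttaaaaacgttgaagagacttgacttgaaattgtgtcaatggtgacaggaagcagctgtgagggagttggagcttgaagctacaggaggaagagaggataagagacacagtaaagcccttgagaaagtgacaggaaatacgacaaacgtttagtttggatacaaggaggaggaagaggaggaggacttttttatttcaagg
F13a1, inner start, chr13:37049164-37049463, minus strand: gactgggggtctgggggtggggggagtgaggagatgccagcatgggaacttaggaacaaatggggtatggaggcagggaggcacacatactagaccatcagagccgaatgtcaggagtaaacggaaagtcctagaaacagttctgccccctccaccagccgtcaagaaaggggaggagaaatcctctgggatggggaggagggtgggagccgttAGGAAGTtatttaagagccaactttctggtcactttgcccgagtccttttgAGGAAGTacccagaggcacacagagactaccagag
Ace, upstream start, chr11:105967698-105967997, plus strand: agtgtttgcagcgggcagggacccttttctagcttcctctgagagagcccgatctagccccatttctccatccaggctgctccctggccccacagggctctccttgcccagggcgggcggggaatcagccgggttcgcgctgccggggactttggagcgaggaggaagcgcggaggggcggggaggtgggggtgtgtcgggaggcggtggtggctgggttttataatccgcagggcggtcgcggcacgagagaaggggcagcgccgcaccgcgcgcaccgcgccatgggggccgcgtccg
Mmp14, chr14:54431348-54431647, plus strand: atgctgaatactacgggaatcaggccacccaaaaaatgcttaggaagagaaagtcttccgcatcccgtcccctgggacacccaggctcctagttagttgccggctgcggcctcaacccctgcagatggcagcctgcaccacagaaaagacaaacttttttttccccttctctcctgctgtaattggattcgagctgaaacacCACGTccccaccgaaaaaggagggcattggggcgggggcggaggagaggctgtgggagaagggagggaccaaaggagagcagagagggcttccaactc
Cyp11a1, upstream start, chr9:57997774-57998073, plus strand: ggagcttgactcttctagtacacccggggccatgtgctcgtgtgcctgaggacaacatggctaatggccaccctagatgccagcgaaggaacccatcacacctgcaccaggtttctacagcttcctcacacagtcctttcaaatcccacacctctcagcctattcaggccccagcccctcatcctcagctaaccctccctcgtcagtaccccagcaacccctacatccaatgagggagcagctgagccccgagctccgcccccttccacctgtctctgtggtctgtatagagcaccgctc

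The inner F13a1 promoter held 2 copies of AGGAAGT on the plus strand of the gene, at -36 to -30 and at 15 to 21 counted from 0 at the start. The Mmp14 promoter held 1 ACGTG, on the opposite strand at -48 to -44. The other printed promoters held no match, and for Cyp11a1 the printed window may lie outside the Nmu-absent region. AGGAAGT occurred in 11 of the 104 promoter entries of genes with a start inside an Nmu-absent region (10.6%) and in 9.35% of all 32851 entries. The shares were 7.69% and 10.8% for TTGCNNAA, 10.6% and 7.81% for TGANTCA, and 19.2% and 19.6% for ACGTG. The shares thus lay above those of all entries for AGGAAGT and TGANTCA and below them for TTGCNNAA and ACGTG. They rest on few entries and were not tested. The 104 entries cover every listed start of these genes, whether or not that start lay in a region. The PU.1 list for the empty vector had a peak of 147 bp centred 10 bp downstream of the inner F13a1 start, in the stretch that carries both copies, and another centred 464 bp downstream. With the wild-type fragment a peak was centred 469 bp downstream. With the mutant fragment no PU.1 peak was called in this region.

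Nmu-absent regions were narrow. Their median width was 775 bp, against 635 bp for Nwt-absent and 1561 bp for constant regions, and 1832 of the 2589 (70.8%) were under 1 kb. HOMER, the program that called the peaks, required at least 7 tags in a window of 500 bp and joined windows into regions, so a region of about 500 bp rests on 1 window. Of empty-vector peaks under 750 bp that were shared with Nwt, 26.9% were absent with Nmu; of those shared with Nmu, 33.8% were absent with Nwt. From 1000 to 1500 bp the shares were 6.45% and 3.07%, and at 2500 bp or more 0.354% and 0.171%. Above 750 bp the share absent with Nmu was the larger in each of the 4 width classes, and below it the smaller. At 2 kb or more there were 78 Nmu-absent and 29 Nwt-absent regions. The H3K4me2 libraries had similar depth, 5364738, 5255834 and 5393592 tags with Nmu, Nwt and pCDH. The share of tags inside peaks was 54.8%, 48.5% and 57.6%, and the number of peaks 42514, 39445 and 39503.

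**Figure D1:**
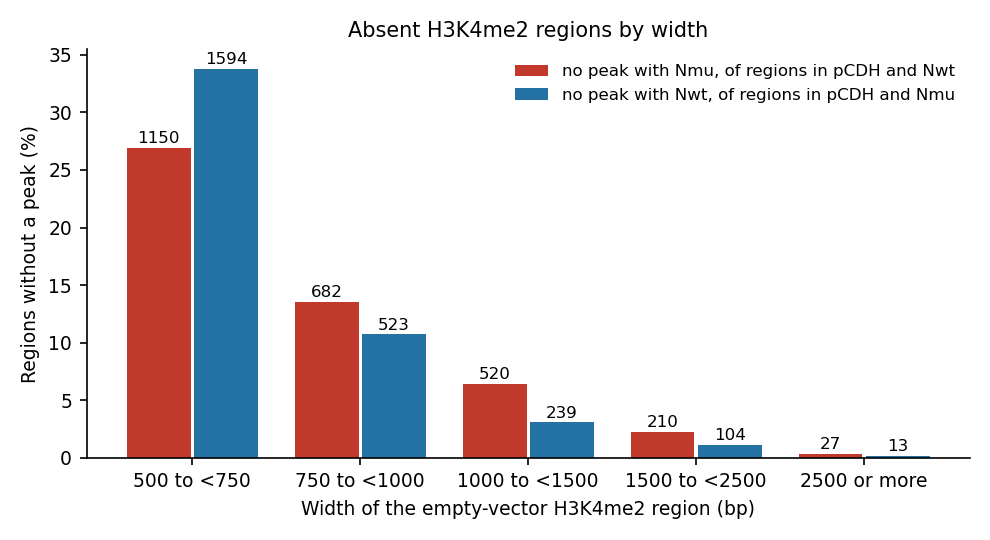
Share of empty-vector H3K4me2 regions without a peak (vertical axis, %) by region width in bp (horizontal axis); numbers above bars are regions. Red bars count regions absent with Nmu among those shared with Nwt, and blue bars the reverse; in the narrowest class they stand at 26.9% and 33.8%, and from 1000 to 1500 bp at 6.45% and 3.07%.

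Most Nmu-absent regions were clear of any mutant-fragment peak. The nearest one lay at a median of 6184 bp, within 1 kb for 318 regions and within 100 bp for 27. The 3 closest were a 634-bp region inside a transcript, 83264 bp from the start of Postn, a 1055-bp region 6388 bp from the start of Mir7237, and a 501-bp region 200 bp from the start of Ska3, with gaps of 5, 6 and 9 bp. Just outside the rule, 3 constant regions shared only 10, 23 and 36 bp with a mutant-fragment peak; they lay nearest to Tob1, Cyth1 and Ddx19a. The overlap of Nmu-absent regions with the wild-type-fragment peak was a median of 78.5% of their width, so few depended on a shared edge. The score that the authors deposited is 1 for every peak, so how far below the calling limit the mark lay with Nmu was not measured.

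The regions were mostly distal. A transcript start lay inside 79 of the 2589 (3.05%), compared with 2.51% of Nwt-absent and 19.6% of constant regions. A further 155 lay within 1 kb of a start, 1054 at 1 to 20 kb, 1033 at 20 to 100 kb and 268 beyond. The median distance to a start was 20.1 kb for Nmu-absent, 18.6 kb for Nwt-absent and 5.99 kb for constant regions. Outside any RefSeq transcript of the table lay 50.4% of Nmu-absent, 45.6% of Nwt-absent and 36.9% of constant regions. Both classes of absent region were thus further from promoters than constant ones. The widest Nmu-absent region, 4910 bp at chr4:105787260-105792169 (mm9), was intergenic, 196649 bp from the start of Usp24, and held PU.1, C/EBPα and C/EBPβ peaks with all 3 constructs. The other 5 widest spanned 3188 to 3792 bp and lay nearest to Sept9, Fam220a, Gm6588, Sipa1l2 and Pip5k1b; the one at Fam220a covered that gene's start.

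Some Nmu-absent regions lay in groups. Joined where less than 20 kb apart, they formed 2328 loci, of which 29 held 3 or more regions; Nwt-absent regions formed 9 such loci. The largest held 4 regions over chr12:74910570-74948426 (mm9), all upstream of Hif1a, the oxygen-regulated subunit of hypoxia-inducible factor 1, at 60428 to 96233 bp from its start. A further Nmu-absent region lay 33368 bp upstream. Among the 4, a region 1619 bp wide held 2 PU.1 peaks with Nwt and 2 with pCDH, and 0 with Nmu. Hif1a RNA was 17.6 and 12.5 RPKM with Nmu (24 h and second time), 16.6 and 22.9 RPKM with Nwt, and 15.8 and 22.6 RPKM with pCDH. The Nmu value was above both controls at 24 h and below both at the second time, and limma did not call it (log2 difference -0.35, adjusted p = 0.475). This locus was singled out after its values were seen.

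PU.1 binding was compared next, from libraries that the rule did not use. PU.1 peaks fell on 26.4% of Nmu-absent regions with Nmu (95% Wilson interval 24.7 to 28.1%), 28.0% with Nwt (26.3 to 29.7%) and 33.7% with pCDH (31.9 to 35.6%). The mutant-fragment value was the lowest of the 3, with an interval that overlaps that of Nwt; in regions under 750 bp it was 25.7% with Nmu, 25.3% with Nwt and 29.6% with pCDH. In constant regions the shares were 51.4%, 46.9% and 55.7%, and in Nwt-absent regions 39.4%, 34.5% and 41.6%, so in both of those classes the wild-type-fragment library was the lowest. Intervals cover counting error only, with 1 library per construct and factor, and no test over regions was made.

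Of 641 Nmu-absent regions with a PU.1 peak in both controls, 106 had none with Nmu, or 16.5% (Wilson 13.9 to 19.6%). The same loss occurred in 59 of 780 Nwt-absent regions (7.56%) and in 907 of 14056 constant regions (6.45%, 6.06 to 6.87%). Taken the other way round, 120 of 841 Nwt-absent regions with PU.1 in pCDH and Nmu had none with Nwt, 14.3%, against 11.9% of constant regions. The gap between absent and constant regions was thus larger for the mutant fragment than for the wild-type fragment, whose PU.1 library had fewer peaks overall (53835 with Nwt, against 64744 with Nmu and 71846 with pCDH). The 106 included regions within 20 kb of a start of F13a1, Klf2, Cebpa and Lrrfip1, each lower with Nmu than each control at both times. They also included regions within 20 kb of a start of Banp, which was higher at both times. Others lay as near to Hnrnpf, Irf2bpl and Sh3kbp1, which were neither lower nor higher throughout. Within 20 kb of any of the 106 regions, 34 genes were tested. Of these, 14 were lower with Nmu than with each control at both times (41.2%, against 22.5% of all genes). Another 8 were higher (23.5%, against 23.0%).

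C/EBP peaks were most frequent with the wild-type fragment in every class. C/EBPα peaks fell on 8.03%, 16.0% and 9.85% of Nmu-absent regions with Nmu, Nwt and pCDH, and on 16.5%, 30.5% and 19.4% of constant regions. C/EBPβ peaks fell on 33.9%, 43.5% and 26.4% of Nmu-absent and on 51.3%, 61.9% and 41.1% of constant regions. The order of the constructs was the same in both classes and followed the number of peaks in each list: for C/EBPβ 47893 with Nmu, 69522 with Nwt and 35964 with pCDH. Where both controls had the factor, it was missing with Nmu in 66 of 214 Nmu-absent regions for C/EBPα (30.8%) and in 57 of 639 for C/EBPβ (8.92%). In constant regions those shares were 29.1% and 6.12%. No peak of any of the 3 factors with any construct fell on 889 Nmu-absent regions (34.3%), against 28.8% of Nwt-absent and 18.7% of constant regions. In regions of 1000 to 1500 bp, a PU.1 peak with pCDH fell on 39.0% of Nmu-absent, 52.3% of Nwt-absent and 47.6% of constant regions, so the Nmu-absent share was the lowest at this width too.

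**Figure D2:**
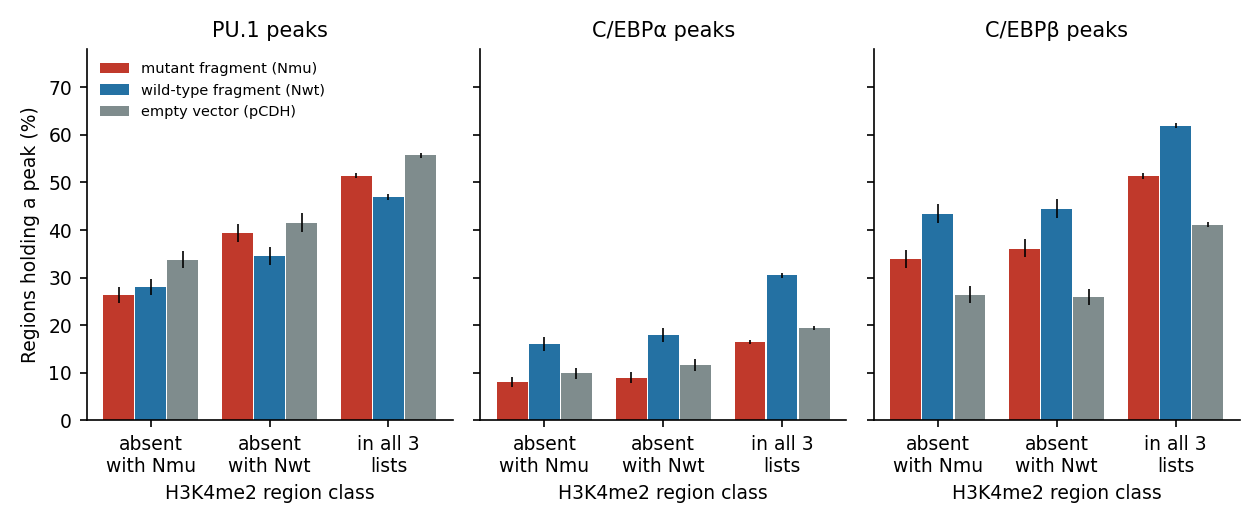
Share of H3K4me2 regions that hold a PU.1, C/EBPα or C/EBPβ peak (vertical axis, %) in 3 region classes (horizontal axis), with bars for Nmu, Nwt and pCDH and 95% Wilson intervals. For PU.1, Nmu is the lowest bar in Nmu-absent regions (26.4%) and Nwt the lowest in the other classes; for both C/EBP factors Nwt is the highest bar in every class.

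The RNA libraries, also outside the rule, were then used to ask whether genes near these regions differed. A gene counted as near if any of its transcript starts lay within 20 kb of an Nmu-absent region. There were 1853 such genes: 99 had transcripts under 200 bases, 737 others did not reach 1 RPKM in 2 of the 6 BV2 libraries, and 1017 were tested. Of these 1017, 985 also had a constant region within 20 kb, so few depended on an Nmu-absent region alone. Differences are log2(RPKM + 1) with Nmu minus the mean of both controls, from a limma fit over all genes with construct and time as terms. The 2 times stand in for replicates and leave 2 residual degrees of freedom. That residual is how far the differences between constructs change from 1 time to the other. Separate cultures are not stated in the labels, so p-values measure this spread between these libraries only. In such bulk RNA, fewer expressing cells and less RNA per cell cannot be told apart.

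Few near genes were called. At an adjusted p under 0.05, 1 of 1017 was lower, Nr4a1 (0.0502% of all 9961 genes of that length were), and 3 were higher, Fyb, Il1b and Tlr2 (0.281% of all). These counts were not stable: against either control alone, 0 were called lower and 0 higher. Near genes were lower with Nmu than with each control at both times in 282 cases (27.7%, against 22.5% of all genes tested) and higher in 218 (21.4%, against 23.0%). At least 2-fold lower in all 4 of those comparisons were 11 near genes (1.08%, against 0.492%), and 2-fold higher were 9 (0.885%, against 0.763%). The median difference was -0.02 near Nmu-absent regions and -0.00 over all genes. Near Nwt-absent regions, 22.9% were lower, 4 of 1071 were 2-fold lower and 11 were 2-fold higher. The share of lower genes was thus above the background near Nmu-absent regions, and that of higher genes was close to it; whether this exceeds chance was not tested.

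Distance and width were looked at in the same way. Of 33 tested genes with the start inside an Nmu-absent region, 12 were lower (36.4%) and 6 higher (18.2%) at both times. Among them 2 were 2-fold lower and 0 2-fold higher. At the adjusted threshold limma called none of the 33. An unadjusted limma p under 0.05 was reached by 8 lower (24.2%, against 10.6% of all genes) and 4 higher (12.1%, against 9.48%). With the start inside an Nwt-absent region, 8 of 25 tested genes were lower (32.0%) and 3 higher (12.0%), with 1 2-fold lower and 1 2-fold higher. There 6 lower (24.0%) and 3 higher (12.0%) had an unadjusted limma p under 0.05. The shares of lower genes were thus similar for both classes of absent region. At over 0 to 5 kb from an Nmu-absent region, 25.4% of 295 genes were lower and 22.0% higher. At over 5 to 20 kb, 28.3% of 689 were lower and 21.3% higher, so the share of lower genes did not fall steadily with distance. At 20 to 50 kb, 23.6% of 1035 genes were lower and 23.7% higher, close to all genes. Near an Nmu-absent region of 1 kb or wider, 91 of 311 were lower (29.3%) and 70 higher (22.5%). There 7 were 2-fold lower (2.25%, against 0.492% of all genes) and 1 was 2-fold higher (0.322%, against 0.763%). Near an Nwt-absent region of that width, 46 of 193 were lower (23.8%) and 39 higher (20.2%), with 1 2-fold lower and 0 2-fold higher. Of the 11 genes that were 2-fold lower, 7 had an Nmu-absent region of 1 kb or wider, as did 1 of the 9 that were 2-fold higher. Of all 1017 near genes tested, 311 had one. These counts are small and were not tested. Genes near 2 or more Nmu-absent regions (92 tested) were lower in 30.4% and higher in 25.0%.

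**Figure D3:**
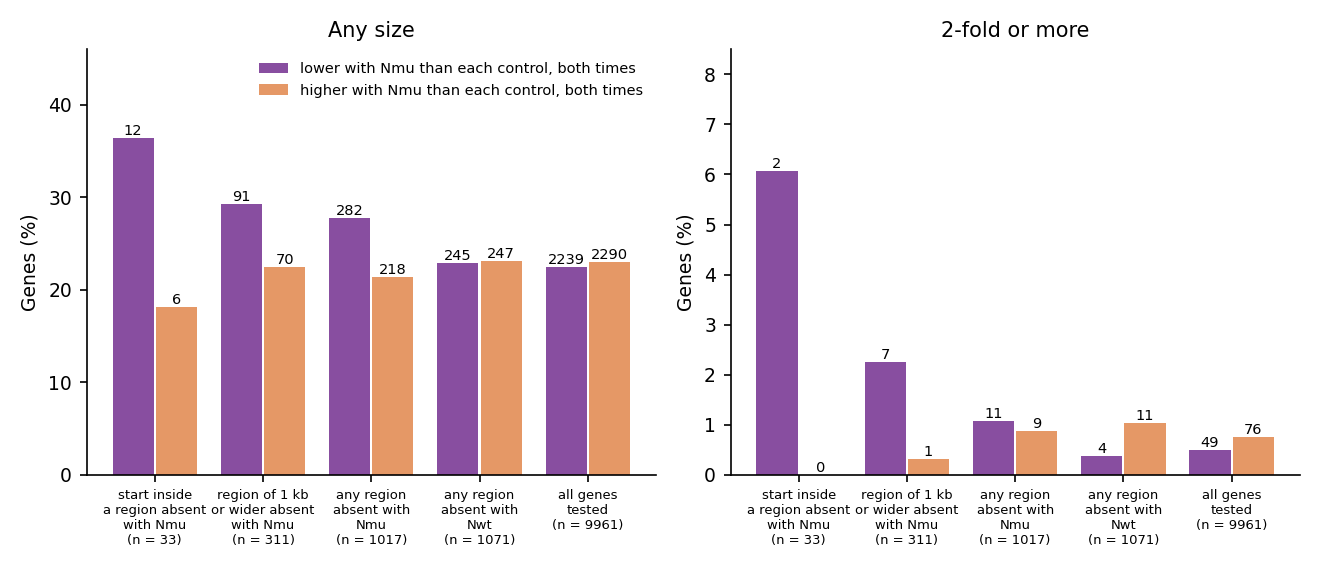
Share of tested genes (vertical axis, %) lower or higher with Nmu than with each control at both times, of any size (left) and at least 2-fold (right), for 4 sets of genes by nearby region and for all genes; numbers above bars are genes. The share of lower genes is 36.4% for starts inside an Nmu-absent region, 27.7% within 20 kb and 22.5% over all genes.

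Genes with a start inside an Nmu-absent region come first. F13a1 encodes the A subunit of coagulation factor XIII, a transglutaminase that alternatively activated macrophages express. It had 0.113 and 0.024 RPKM with Nmu at 24 h and the second time, 11.2 and 2.27 RPKM with Nwt, and 9.97 and 2.13 RPKM with pCDH. Both mutant-fragment values were far below the other 4, and at the implied depth they rest on few reads. The log2 difference was -2.51 (SE 0.42), 5.70-fold lower, with an adjusted p of 0.0972 that missed the threshold. Its 2 Nmu-absent regions, chr13:37140371-37141175 and chr13:37141714-37142346 (mm9), cover both starts, and a single wild-type-fragment peak overlapped both; the nearest mutant-fragment peak lay 5941 bp away. Peaks with pCDH centred at -7728 bp and 14553 bp from the inner start had a counterpart with both fragments.

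Mmp14, a membrane-bound matrix metalloproteinase, had 3.95 and 5.43 RPKM with Nmu, 21.5 and 14.1 RPKM with Nwt, and 22.7 and 14.2 RPKM with pCDH. Its difference was -1.73 (SE 0.26, adjusted p = 0.0868), 3.32-fold lower. A region of 1828 bp over its start was Nmu-absent, as was one of 1235 bp centred at -14.36 kb, while mutant-fragment peaks remained over 1.125 to 3.115 kb downstream and 9.663 kb onwards. Ace, angiotensin-converting enzyme, had 0.478 and 0.305 RPKM with Nmu, 7.38 and 2.01 RPKM with Nwt, and 7.54 and 1.59 RPKM with pCDH (difference -1.81, SE 0.35, adjusted p = 0.117). Within 20 kb of its start 1 H3K4me2 peak was called with Nmu, 4 with Nwt and 5 with pCDH.

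Cyp11a1, the enzyme that starts steroid synthesis from cholesterol, had 2.31 and 5.11 RPKM with Nmu, 23.3 and 7.34 RPKM with Nwt, and 23.4 and 5.95 RPKM with pCDH. The groups lay apart at 24 h and closer at the second time, and the difference of -1.60 (SE 0.60) had an adjusted p of 0.239. Its region, 2263 bp at chr9:57862586-57864848 (mm9), was wholly covered by a wild-type-fragment peak, and the nearest mutant-fragment peak was 59399 bp away. C/EBPβ peaks inside it were kept, 2 with Nmu, 1 with Nwt and 1 with pCDH. Over the 33 tested genes with a start inside such a region, the quartiles of the difference were -0.46 and 0.09, against -0.25 and 0.23 over all genes. Besides Mmp14 and Cyp11a1, the most abundant were Rps24 (a ribosomal protein), Hnrnpf (an RNA-binding protein), Shmt2 (mitochondrial serine metabolism) and Echs1 (fatty acid oxidation). Their differences were 0.28, -0.13, 0.66 and -0.01. The Hnrnpf region covered another start of that gene, and was centred at -6.12 kb from the start of the transcript whose RNA is given. At Rps24 and Shmt2 a mutant-fragment peak lay within 386 and 404 bp of the region.

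**Figure D4:**
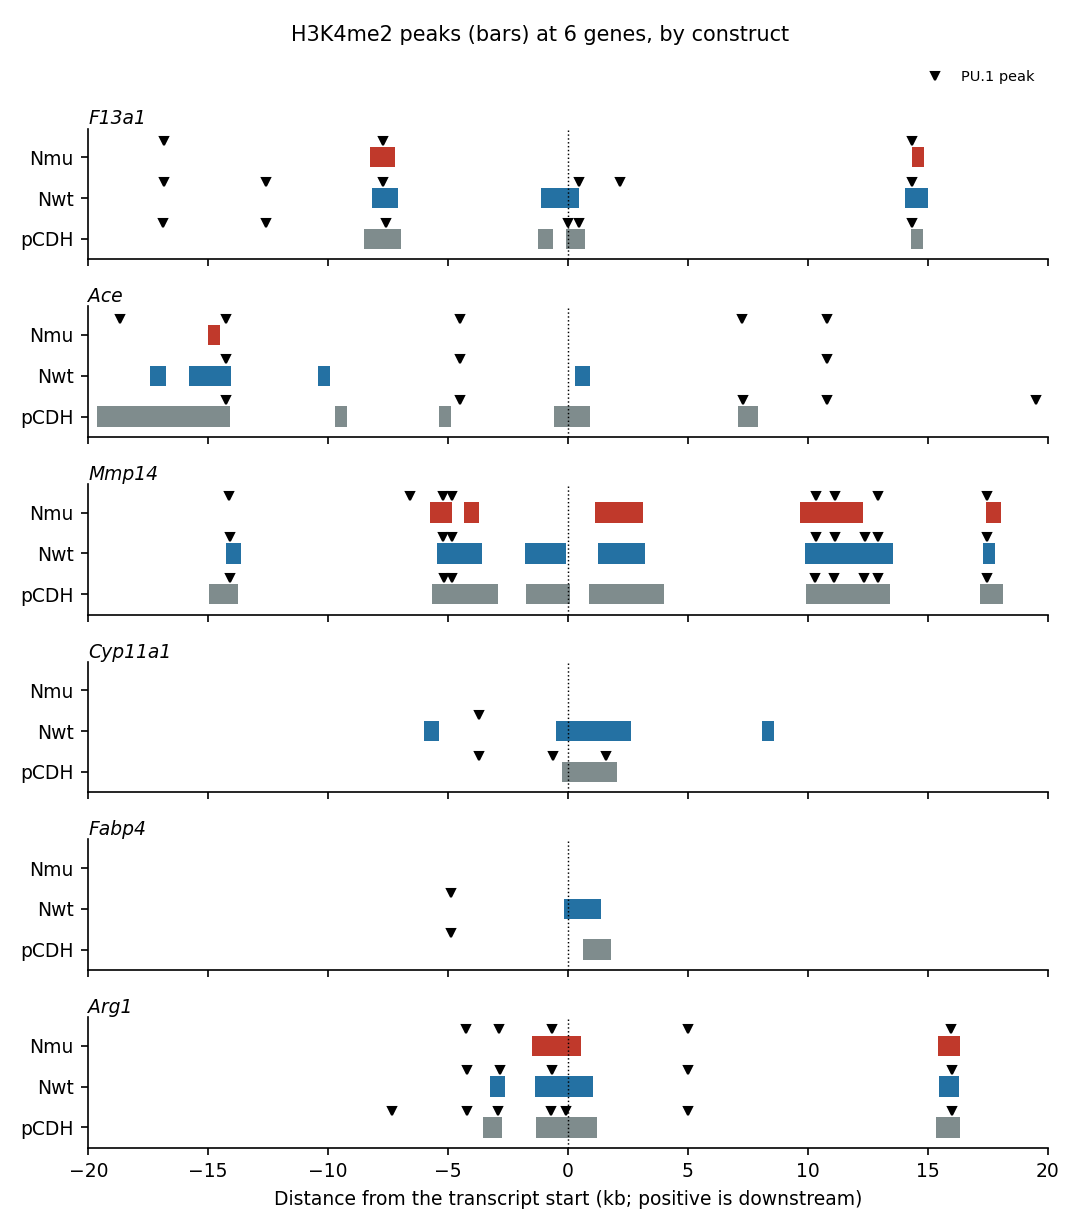
H3K4me2 peaks (bars) and PU.1 peaks (triangles) with Nmu, Nwt and pCDH at 6 genes, by distance from the transcript start in kb (horizontal axis; dotted line at 0). No Nmu bar lies over the starts of F13a1, Ace, Mmp14, Cyp11a1 and Fabp4. Where the pCDH bar covers the start, as at all of these but Fabp4, this follows from the rule. The Nwt bars at Ace and Mmp14 and the pCDH bar at Fabp4 also miss the start. At Arg1 the start itself keeps an Nmu bar and the upstream region, centred at -3.15 kb, does not.

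Further genes had an Nmu-absent region close to the start without covering it. Arg1 (arginase 1, which turns arginine to ornithine and marks alternative activation) had 1.34 and 4.88 RPKM with Nmu, 234 and 20.3 RPKM with Nwt, and 189.7 and 22.5 RPKM with pCDH. Both mutant-fragment values were below all control values, and the size of the gap changed with time, -6.50 at 24 h and -1.93 at the second time. The mean, -4.21 (SE 1.05), had an adjusted p of 0.147. Its Nmu-absent region, 764 bp at chr10:24650047-24650810 (mm9), was centred at -3.15 kb, and PU.1 was called there with all 3 constructs. C/EBPα was called there with Nmu and Nwt, and C/EBPβ likewise.

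Fabp4, a fatty acid-binding protein, had 6.88 and 12.4 RPKM with Nmu, 91.5 and 34.6 RPKM with Nwt, and 78.7 and 30.2 RPKM with pCDH (difference -2.38, SE 0.50, adjusted p = 0.124). Its Nmu-absent region of 1176 bp began 610 bp downstream of the start; no H3K4me2 peak with Nmu lay within 20 kb and none of the 3 factors had a peak inside it. Scara5, a scavenger receptor, had a region of 2014 bp beginning 113 bp from its start and 0.347 and 0.049 RPKM with Nmu, 2.45 and 1.13 RPKM with Nwt, and 1.93 and 1.32 RPKM with pCDH (difference -1.16, adjusted p = 0.0764). Atp6v0d2, part of the pump that acidifies lysosomes, had 3.24 and 2.79 RPKM with Nmu, 46.6 and 17.2 RPKM with Nwt, and 41.2 and 14.2 RPKM with pCDH (difference -2.77, SE 0.32, adjusted p = 0.0664). Tmem26, a membrane protein, differed by -2.15 (adjusted p = 0.0664).

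Other genes near Nmu-absent regions had Nmu values below both controls at both times. Hspb7 (a small heat shock protein) differed by -2.41, Scel (sciellin) by -1.87, Angptl2 (a secreted angiopoietin-like protein) by -1.82 and S100a6 (a calcium-binding protein) by -1.70, with adjusted p between 0.0668 and 0.174. Plod2, which hydroxylates lysines of collagen, differed by -1.09 (adjusted p = 0.0697). Nr4a1, an orphan nuclear receptor that restrains inflammatory genes in macrophages, was the one that passed. It fell to 0.236 and 0.678 RPKM with Nmu, against 2.28 and 3.52 RPKM with Nwt and 2.77 and 3.96 RPKM with pCDH, a log2 difference of -1.503 (SE 0.14, adjusted p = 0.0456 in limma). Its region of 1277 bp lay 9726 bp upstream with a mutant-fragment peak 781 bp from it, and PU.1 was called there with all 3 constructs. The call was lost in 6 of 12 other settings of the fit, among them a pseudocount of 5 (-0.57) and quantile normalization (-1.44).

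Genes higher with Nmu were also found beside Nmu-absent regions, and 3 passed the test. Tlr2, the receptor for bacterial lipoproteins, rose to 22.2 and 30.2 RPKM with Nmu, against 2.88 and 5.93 RPKM with Nwt and 3.56 and 4.91 RPKM with pCDH (2.37, SE 0.17, adjusted p = 0.0274 in limma). Il1b, interleukin-1 beta, rose to 9.73 and 10.1 RPKM with Nmu, against 1.73 and 1.38 RPKM with Nwt and 1.501 and 1.90 RPKM with pCDH (2.06, SE 0.16, adjusted p = 0.0291). Fyb, an adaptor of immune receptor signalling, rose to 29.4 and 23.4 RPKM with Nmu, against 5.33 and 6.87 RPKM with Nwt and 5.83 and 6.43 RPKM with pCDH (1.94, SE 0.18, adjusted p = 0.0471). Their regions were 641, 501 and 501 bp wide, downstream of the start, and each gene had 2 to 6 constant regions within 20 kb. No call of these 3 held against a single control.

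Irg1, which makes itaconate in activated macrophages, had 25.7 and 68.0 RPKM with Nmu, 2.88 and 1.62 RPKM with Nwt, and 2.27 and 1.33 RPKM with pCDH (3.85, SE 0.45, adjusted p = 0.0668). Cebpd (the transcription factor C/EBPδ) differed by 2.32, Il1rn (the interleukin-1 receptor antagonist) by 2.10, Pim2 (a serine/threonine kinase) by 1.95, Plk2 (a polo-like kinase) by 1.58 and Plscr1 (a phospholipid scramblase) by 1.218. Their adjusted p lay between 0.0686 and 0.104. Except for a 1296-bp region at Irg1, the Nmu-absent regions near these genes were under 1 kb.

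**Figure D5:**
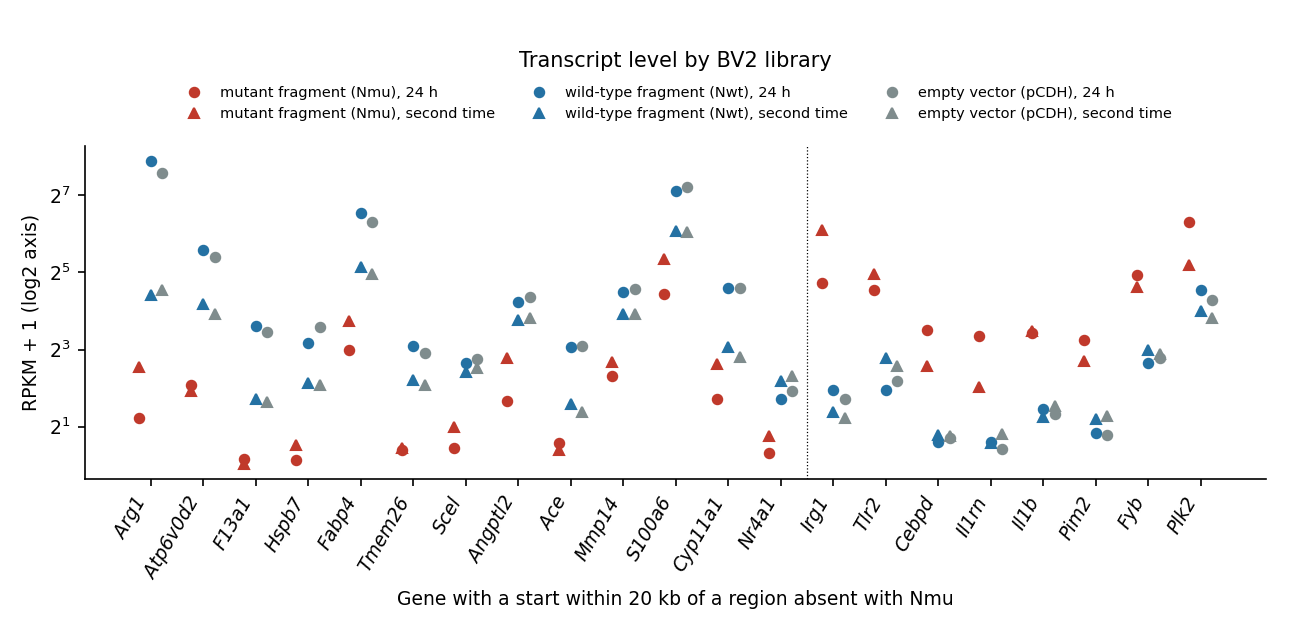
RPKM + 1 on a log2 axis (vertical) in each of the 6 BV2 RNA libraries for 13 genes lower and 8 genes higher with Nmu (horizontal; divided by the dotted line), with circles for 24 h and triangles for the second time. Apart from Nr4a1, which was called, the genes were chosen from those lower, or higher, with Nmu than each control at both times. The red Nmu symbols therefore lie below both controls of the same time left of the line and above them right of it. The gap is widest for Arg1 at 24 h.

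Gene lists were read against the regions, with members put into some lists after earlier results of these data were known, so that their direction is not independent evidence. Of 17 alternative activation genes, 5 were near an Nmu-absent region: Arg1, F13a1 and Tmem26 were lower at both times and Il1rn and Il4ra (the interleukin-4 receptor, 0.34) higher, with none called in the list. Of 30 hypoxia and glycolysis genes, 4 were near: Aldoa, Pfkp and P4ha1 were lower at both times (-0.64, -0.96 and -0.59), and Adm did not pass the filter. The list's median was -0.60 with 1 gene of 28 called lower, which was not a near gene. Of 29 myeloid transcription factors, 8 were near. Among them Cebpa (-0.61) and Klf2 (-1.17, adjusted p = 0.162) were lower and Cebpd and Maf (0.49) higher at both times, Klf6 and Bach1 varied with time or control, and Egr1 did not pass the filter. For both Cebpa and Klf2 the region near the gene also lacked its PU.1 peak with Nmu. Of 20 lysosome genes, 4 were near: besides Atp6v0d2 and Axl (not tested), Ctsd, the protease cathepsin D, differed by 0.98 and Cd63 by 0.31. Of 24 cholesterol and lipid genes, Pmvk alone was near; Pmvk (phosphomevalonate kinase) differed by -1.07 (adjusted p = 0.132). Of 25 Toll-like receptor and NF-kB genes 2 were near (Tlr2 and Nfkbie, 0.37), and of 19 pro-inflammatory genes 2 (Il1b and the untested Il12b). Near regions lay also 3 of 15 homeostatic microglial genes (Tmem119, Csf1r and Tgfbr1), 3 of 26 phagocytic receptors, 1 of 23 cell cycle genes and 0 of 16 interferon-stimulated genes, and none of the near genes tested in these lists differed from both controls in 1 direction at both times.

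Of 7 tested genes with 3 or more Nmu-absent regions within 20 kb, 3 were lower with Nmu than each control at both times (42.9%, against 22.5% of all genes) and 1 was higher; 3 had an unadjusted limma p under 0.05, all lower (42.9%, against 10.6% of all genes), and none was called at the adjusted threshold. Spry2, an inhibitor of growth factor signalling, had 3 regions spanning 4609 bp in sum and no constant one, and its RNA was 1.85 and 1.47 RPKM with Nmu, 1.75 and 1.36 RPKM with Nwt, and 1.43 and 2.16 RPKM with pCDH, so the groups overlapped. Irf2bpl (-0.08), Sh3kbp1 (-0.04) and Banp (0.25) had 3 regions each. Pip5k1b, a phosphatidylinositol phosphate kinase, and Lrrfip1, also with 3, differed by -0.78 and -0.69 (adjusted p = 0.111 and 0.170). None of 26 H3K4 methylation writers and erasers lay within 20 kb of such a region, where 1853 of all 23953 genes did; their median difference was -0.01, and limma called 0 of the 25 tested. Spi1, which encodes PU.1, had 47.8 and 70.2 RPKM with Nmu, 25.8 and 30.3 RPKM with Nwt, and 26.9 and 28.7 RPKM with pCDH (1.03, adjusted p = 0.0948), so both Nmu values were above all 4 control values.

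Markers of the line and of other cells were read in the same libraries. Cd68, Itgam, Ptprc and Csf1r, which mark microglia and macrophages, were above 7 RPKM in all 6 BV2 libraries, and Aif1 was at 4.80 and 7.195 RPKM with Nmu, 0.878 and 1.92 RPKM with Nwt, and 1.98 and 1.65 RPKM with pCDH. Aif1 differed by 1.43 (adjusted p = 0.0868 in limma) and Ptprc by -0.65 (adjusted p = 0.129), and neither was called. Neuron, astrocyte, oligodendrocyte, endothelial, fibroblast and lymphocyte lists summed to at most 4.62 RPKM in any BV2 library, with Snap25, Gfap, Mog, Cldn5, Col1a1 and Cd3e at 0. Of the 8 granulocyte genes, Lcn2 was at 219 and 1.98 RPKM with Nmu and at most 0.180 RPKM in the controls, while S100a9, Mpo and Ltf were at 0 throughout; the list summed to 219 and 6.16 RPKM with Nmu and to 1.13 to 2.82 RPKM in the controls. Their part in the results was not tested. Implied depth of the BV2 RNA libraries was 10.8 to 14.0 M reads.

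In the primary mouse cells, with 1 library per genotype and hence no test, the share of near genes that differed 2-fold was close to that of all genes. In microglia, 3 of 947 expressed near genes were at least 2-fold lower in the Q175/175 library (0.317%, against 0.363% of all genes), namely S100a6, Klhdc8b and Prtn3, and 1 was higher, Axl (0.106%, against 0.0962%). In macrophages 5 of 982 were lower (0.509%, against 0.385%), namely Mmp14, Arf1, AA414768, Il1b and Pfdn2, and 9 were higher (0.916%, against 0.770%). Mmp14 had 0.559 RPKM in mutant and 2.61 RPKM in wild-type macrophages, and 3.47 and 4.41 RPKM in mutant and wild-type microglia. S100a6 had 3.55 and 12.0 RPKM in mutant and wild-type microglia, and 259 and 191 RPKM in mutant and wild-type macrophages. F13a1 had 3.04 and 7.04 RPKM in mutant and wild-type microglia, and 28.2 and 27.6 RPKM in mutant and wild-type macrophages. Il1b was lower in mutant macrophages, 0.683 against 2.51 RPKM, and higher in mutant microglia, 4.19 against 3.08 RPKM, the direction seen in BV2 cells.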

How the data were processed

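The authors deposited peak lists from 12 BV2 ChIP-seq libraries, 1 per construct and target, and a table of RPKM values (reads per kilobase of transcript, scaled to the mapped reads of the library) for RefSeq transcripts in 6 BV2 and 4 primary cell libraries. Bowtie, HOMER, STAR 2.0.3e and edgeR are named in the submitters' processing notes, with build mm9. Per the file headers, HOMER called H3K4me2 regions in histone style, with a 500-bp window, at least 7 tags, and 4-fold over input and over the local region at a Poisson p of 1e-04; the input is named for another macrophage source. The score that the authors deposited is 1 for every H3K4me2 peak and was not used. The deposited header calls the second RNA time 6 h and the labels 48 h, and the time's zero is not stated.

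Overlap meant 1 bp or more. The transcript with the highest mean stood for a gene; transcripts under 200 bases were left out of the counts of genes. RPKM values were tested with limma 3.58.1 (R 4.3.3) on log2(RPKM + 1) for genes at 1 RPKM or more in 2 of 6 libraries, with Benjamini-Hochberg adjustment over all of them; this scale understates changes of low genes. The code of the fit was run on simulated data with low noise, large changes and no time effect. That run does not show how the fit behaves on these libraries. RPKM values matched whole reads within 0.1 reads at the depths given. Wilson intervals (95%) cover counting error only. Other scripts used Python 3.11.15, pandas 2.3.3 and scipy 1.17.1. Named genes were those called, the largest falls (12) and rises (8) of the same sign in all 4 comparisons, those with most regions and the most abundant with a start inside (6 each), and listed genes differing by 1 or more. Plod2, Scara5, Plscr1, Hif1a and Il4ra, and other listed genes below that size, were named after their values were seen. Regions, members and gene lists were chosen with earlier results of these data known. Alternatives varied the region rule, gene distance, pseudocount, filter, normalization, control, time term and libraries.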

Additional observations from a re-analysis of the deposited data

How the results depend on the processing

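Of the 2589 regions, 757 were 1 kb or wider, and PU.1 with Nmu fell on 28.5% of those. The number of near genes called lower, 1, was 0 with regions at least 50% covered by the wild-type-fragment peak, with no mutant-fragment peak within 1 kb, or with the start inside; it was also 0 with pseudocount 5, no filter on low values, quantile normalization, no time term, or either control alone. The number called higher, 3, was 0 with regions of 1 kb or wider, a start inside, no filter, or either control alone. Leaving out 1 library gave 4 to 232 lower and 6 to 178 higher; for the Nmu libraries of 24 h and the second time the lower counts were 129 and 232, for Nwt 15 and 31, and for pCDH 4 and 10. The lone library of a construct is then assumed to vary like the others; the cause was not tested.

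The median of near genes, -0.0235, was -0.031 with no mutant-fragment peak within 1 kb, -0.0164 for regions of 1 kb or wider, -0.1266 for starts inside, -0.009 within 50 kb, -0.027 and -0.0127 with pseudocounts 0.5 and 5, -0.0162 without the filter, -0.0322 against pCDH alone, -0.0319 against Nwt alone, and -0.0442 to -0.0128 leaving out 1 library. The 11 genes at least 2-fold lower became 7 with regions of 1 kb or wider, 2 with starts inside, 20 with pseudocount 0.5 and 3 with pseudocount 5. The 9 at least 2-fold higher became 1, 0 and 5 with regions of 1 kb or wider, starts inside and pseudocount 5, and 19 within 50 kb.

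Over 33 named genes and 12 settings each, 271 values kept direction and side of the threshold, 95 gained a call, 16 lost one and 14 changed sign, all in 5 genes near 0. The settings that leave out 1 library are among these, and calls gained or lost there cannot be compared with the main fit. Spry2 was 0.0011 with pseudocount 0.5, 0.0593 with quantile normalization and 0.0587 against Nwt alone, and Echs1 was 0.0137 against Nwt alone. Leaving out 1 library gave -0.1489 to 0.148 for Spry2, -0.1713 to 0.0019 for Irf2bpl, -0.2913 to 0.2069 for Sh3kbp1, -0.4614 to 0.2082 for Hnrnpf and -0.1045 to 0.0915 for Echs1. Arg1 ranged from -6.50 to -1.93, F13a1 from -3.38 to -1.06 and Nr4a1 from -1.94 to -0.57. The constructs share the 2 times, so time as a term of the fit blocks the libraries by time; without that term the number called lower is the 0 given above. With 1 ChIP library per construct no region has replicate error, and at 7 tags a narrow region is near the calling limit.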

Other observations

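By chromosome, the share of regions present with both controls and absent with Nmu ranged from 5.81% on chromosome 17 to 10.1% on chromosome X.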
